A study of Mus musculus with 15 samples.

Results

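Gene expression in C2C12 myotubes given Jakyak-gamcho-tang (JGT) at 20 µg/mL was compared with that in vehicle myotubes, over all expressed genes. The comparison rests on 6 of the 15 libraries, the 3 whose titles give the low dose and the 3 titled vehicle, and 14461 of the 42807 gene symbols had enough counts to be tested. C2C12 is a mouse myoblast line that fuses into multinucleated myotubes. All libraries were from cells differentiated for 6 days and then kept for 24 h under their condition, with no genetic change named. JGT is a lyophilised hot-water extract of peony root (Paeoniae radix) and licorice root (Glycyrrhizae radix et rhizoma) in equal weights. Besides the low-dose and vehicle (0.1% DMSO) groups there were JGT at 100 and 500 µg/mL and non-treated cells, with 3 libraries each. A JGT stock of 10 mg/mL in saline with 2% DMSO brings 0.004% DMSO to the low dose, 0.02% to 100 µg/mL and 0.1% to 500 µg/mL. No source used here gives whether DMSO was then made equal, so the extract and a lower DMSO content cannot be told apart in the comparison with vehicle alone. Non-treated cells were therefore used as a second control.

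Cells sense their sterol content through SREBP2, a transcription factor that raises cholesterol synthesis and uptake genes when sterols are scarce. MondoA and ChREBP sense glucose phosphates and drive Txnip, whose protein holds back glucose uptake through the transporter encoded by Slc2a1. In differentiating muscle, Notch signalling through Hes1 keeps precursor cells from fusing, while the BMP antagonist gremlin and the activin beta B chain act as secreted signals. A C2C12 culture also holds unfused cells, and in bulk RNA fewer cells of a type and less RNA per cell cannot be told apart.

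Library totals ran from 26012844 to 29685983 expected counts in vehicle and from 29186085 to 36443442 at 20 µg/mL. The chi-square per gene for a pair of libraries of 1 group, averaged over genes, comes to about 1 under sampling noise alone. It was 2.02 to 4.14 in vehicle and 2.69 to 7.07 at 20 µg/mL, against 8.503 to 35.6 at 500 µg/mL. Sample codes of the control libraries and of the JGT libraries come from different series, although all titles name 1 batch. JGT and the code series cannot be told apart in any comparison of a JGT dose with a control. The myotube markers matched the label: of 8 markers, 7 were in the table and tested, with summed levels of 16708 to 17338 CPM (counts scaled to a common library size) at 20 µg/mL and 15854 to 16799 CPM in vehicle, and 0 of the 7 were called. The 16 markers of myoblasts and reserve cells summed to 2792 to 2853 CPM at 20 µg/mL and 2760.0 to 2839 CPM in vehicle, with 2 called, Hes1 and Spry1. Macrophage markers summed to at most 5.49 CPM at 20 µg/mL, with C1qa, C1qb and C1qc at 0 counts in all 6 libraries. Endothelial markers summed to at most 2.93 CPM, with Emcn and Tie1 at 0. Adipocyte markers reached 63.01 to 63.7 CPM at 20 µg/mL and 58.3 to 60.6 CPM in vehicle, with Cidec and Lep at 0 and 0 of 7 tested members called. Fibroblast markers reached 206 to 242 CPM and 219 to 235 CPM in these groups, with 0 of 7 tested members called. The neuron and glia list (Snap25 and Syt1 at 0) summed to 55.7 to 60.01 CPM at 20 µg/mL and 55.5 to 62.9 CPM in vehicle, and the chondrocyte and osteoblast list (Ibsp at 0) to 97.8 to 103 and 103 to 105 CPM, with no member of either called.

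At 20 µg/mL, 25 genes rose over vehicle and 22 fell, 0.325% of the genes tested (0.173% higher, 0.152% lower; edgeR quasi-likelihood test, Benjamini-Hochberg adjusted p below 0.05). The changes were small: the median absolute log2 difference of the 47 genes was 0.27, and the range was 0.15 to 1.06. Of these, only Eef1a2 passed a log2 difference of 1. The 3 treated libraries and the 3 vehicle libraries did not overlap for any of the 47 genes. Over all tested genes, 10.2% were higher and 10.8% lower without overlap. An unadjusted p below 0.05 was reached by 1539 genes, or 10.6%. Across all tested genes the median log2 difference was 0.0012, with 5% of genes below -0.27 and 5% above 0.25. When the 500 µg/mL libraries, with their wider spread, were left out of the fit, 100 genes were higher and 152 lower (1.76%, with 0.697% higher and 1.06% lower), and these included all 47. The counts of called list members given below stand beside these shares.

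**Figure D1:**
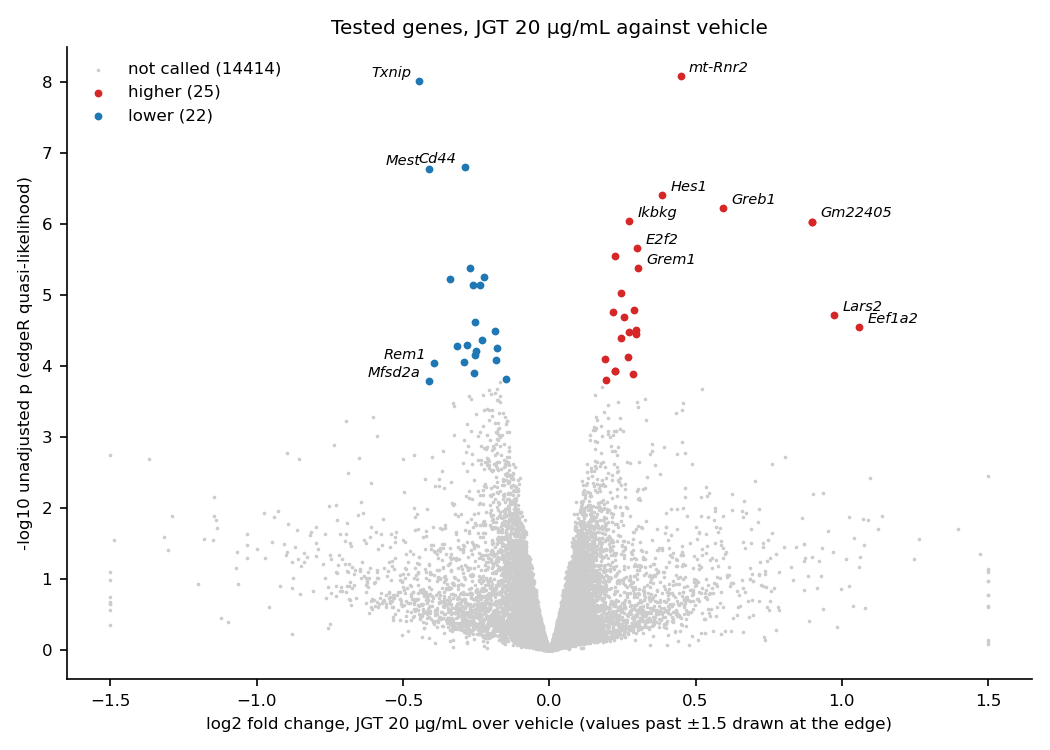
Log2 fold change of JGT 20 µg/mL over vehicle (horizontal) against the negative log10 of the unadjusted edgeR p (vertical) for 14461 genes, with the 25 genes called higher in red and the 22 called lower in blue. Most called genes lie within 0.5 log2 units of 0, and Greb1, Lars2, Gm22405 and Eef1a2 are the called genes furthest to the right.

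Of 20 genes of cholesterol supply, Hmgcs1 and Stard4 fell at 20 µg/mL. Hmgcs1 (chromosome 13, 119690379 to 119708260, plus strand, GRCm38), the cytosolic HMG-CoA synthase of the mevalonate pathway that leads to cholesterol, stood at 320.1, 323 and 327 CPM in the 3 treated libraries against 379.6, 379 and 386 CPM in vehicle and 445, 449 and 443 CPM in non-treated cells. All treated libraries lay below all vehicle libraries, which in turn lay below all non-treated ones, and the difference from vehicle was log2 -0.24 ± 0.039 (SE, n = 3 per group; edgeR adjusted p = 0.00599). Stard4, a carrier of cholesterol between membranes (chromosome 18, 33199355 to 33213862, minus strand), was at 38.7, 39.2 and 41.6 CPM against 47.6, 48.9 and 48.8 CPM and, in non-treated cells, 55.7, 57.4 and 53.6 CPM. Again no treated library reached a vehicle library (log2 -0.28 ± 0.055, adjusted p = 0.0231). Vehicle itself was lower than non-treated for Hmgcs1 (log2 -0.23, adjusted p = 0.00753), while for Stard4 (-0.20, adjusted p = 0.0736) that difference missed the threshold. With single libraries left out, the call of Hmgcs1 was lost in 2 of 6 refits (without JGT 20 µg/mL replicate 1 and without vehicle replicate 3) and that of Stard4 in 5, with adjusted p-values up to 0.0608 and 0.162.

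Of the 20 genes of the cholesterol synthesis list reported here, all tested, 2 fell, where 0.152% of all genes fell, 0 rose and 18 were not called. The list's median log2 difference was -0.07, beside 0.0012 over all genes, and 17 of its 20 members lay below 0. Insig1, which retains the SREBP complex in the endoplasmic reticulum, came next, at 116, 126 and 129 CPM against 146, 149.7 and 152 CPM (log2 -0.27, adjusted p = 0.0689). Its groups did not overlap, where 10.8% of all genes were lower without overlap. Msmo1, the methylsterol monooxygenase, was at 84.6, 91.8 and 98.2 CPM against 99.5, 106 and 106 CPM (log2 -0.18, adjusted p = 0.162), and Srebf2, which encodes SREBP2, at 381, 405 and 402 CPM against 430.2, 424 and 426 CPM (log2 -0.11, adjusted p = 0.234). Sqle, the squalene epoxidase, overlapped between the groups (log2 -0.08, adjusted p = 0.473). Without the 500 µg/mL libraries, 4 members were lower, where 1.06% of all genes were: Hmgcs1, Stard4, Insig1 and Hsd17b7. Against non-treated cells the list's median was -0.23 at 20 µg/mL, with 11 of 20 lower where 1.92% of all genes were lower, and -0.14 in vehicle, with 4 lower against 0.754% of all genes. Both comparisons use the same non-treated libraries. At 100 µg/mL the list differed from 20 µg/mL by a median of 0.00066, with 0 members called.

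The fall in Txnip was the decrease with the smallest p. Txnip (chromosome 3, 96557957 to 96561883, plus strand) encodes thioredoxin-interacting protein, an arrestin that inhibits thioredoxin and glucose uptake. It was at 56.3, 55.8 and 55.4 CPM at 20 µg/mL, 73.8, 75.6 and 78.5 CPM in vehicle and 76.1, 76.2 and 75.2 CPM in non-treated cells. Both control groups lay together well above the treated one, which was 0.74 times the vehicle level (log2 -0.44 ± 0.047 (SE, n = 3 per group; edgeR adjusted p = 6.98e-05)). At 100 and 500 µg/mL it was 53.5 ± 1.83 and 53.3 ± 4.14 CPM (SD, n = 3), with no call against 20 µg/mL (log2 -0.06 and -0.07, adjusted p = 0.899 and 0.34). Slc2a1 (chromosome 4, 119108711 to 119137983, plus strand), the glucose transporter GLUT1, was at 66.1, 68.6 and 68.2 CPM against 57.6, 61.7 and 58.5 CPM in vehicle and 61.2, 61.1 and 62.7 CPM in non-treated cells. It rose over vehicle (log2 0.19 ± 0.038, adjusted p = 0.0308), and against non-treated cells the difference was 0.13 with an adjusted p of 0.0645. In the list of MondoA and glucose-sensing genes, 1 of 11 tested members rose (Slc2a1), 1 fell (Txnip) and 9 were not called, with a median of -0.06. Over all genes, 0.173% rose and 0.152% fell. The other members with small p-values were Hk2, a hexokinase (log2 0.13, adjusted p = 0.312; higher without the 500 µg/mL libraries), and the arrestin Arrdc3 (log2 0.15, adjusted p = 0.342). Arrdc4, an arrestin related to Txnip, was near 1 CPM in all groups and overlapped (log2 -0.12, adjusted p = 0.892). Txnip was called in all 6 refits that left out a library, whereas Slc2a1 lost its call in 5 (adjusted p up to 0.184).

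The upstream sequences of Txnip and Hmgcs1 are shown because both genes fell and each window holds, in capitals, a match to the DNA element of its known regulator. These are the 250 bases before the RefSeq transcription start in GRCm38.p6, both on the plus strand, at chr3:96557707-96557956 for Txnip and chr13:119690101-119690350 for Hmgcs1.
Txnip: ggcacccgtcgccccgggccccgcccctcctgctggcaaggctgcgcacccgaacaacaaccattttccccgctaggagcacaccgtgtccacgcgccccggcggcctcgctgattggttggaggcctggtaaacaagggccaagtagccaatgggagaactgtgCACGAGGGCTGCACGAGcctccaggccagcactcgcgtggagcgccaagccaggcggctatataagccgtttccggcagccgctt
Hmgcs1: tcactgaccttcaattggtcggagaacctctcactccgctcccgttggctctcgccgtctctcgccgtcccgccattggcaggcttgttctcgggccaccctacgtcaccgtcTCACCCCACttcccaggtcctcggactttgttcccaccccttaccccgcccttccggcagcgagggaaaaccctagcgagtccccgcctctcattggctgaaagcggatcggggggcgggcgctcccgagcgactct
The Txnip match is to the carbohydrate response element, a pair of E-box-like blocks with a fixed gap, and begins 85 bases before the start. On either strand, 0.0457% of 32851 mouse windows of this length hold it. The Hmgcs1 match is to a sterol regulatory element, TCACNCCAC, 137 bases before the start, a motif held by 1.05% of the windows. A window was in the table for 33 of the 47 called genes, 51 windows in all. Of these, 1 held the carbohydrate response element and 2 the sterol element, those of Hmgcs1 and Spp1. The aryl hydrocarbon receptor core GCGTG was in 15 of 51 (28.2% of all windows), the antioxidant response core TGACNNNGC in 12 (10.2%), the E-box CACGTG in 3 (6.02%), the MEF2-type motif in 1 (3.2%), and the palindromic estrogen response element in 0 (0.0639%). All were searched on both strands, and palindromic E-boxes can overlap the carbohydrate response element. Windows of the same gene can overlap, as those of Hsph1 do, so a match can be counted more than once. No motif count was tested against the share of all windows. A match of letters shows neither binding nor a cause.

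Other metabolic and transport genes were called. Slc7a1, the cationic amino acid transporter CAT1 (chromosome 5, 148327410 to 148399904, minus strand), was at 115, 114 and 123 CPM against 138, 142 and 145 CPM in vehicle and 133, 145 and 138 CPM in non-treated cells. Treated libraries lay below both controls, and the fall against vehicle was log2 -0.27 ± 0.043, adjusted p = 0.00459. Mfsd2a, which imports lysophospholipids such as those that carry docosahexaenoic acid, was at 11.4, 9.73 and 11.3 CPM against 14.1, 15.004 and 14.2 CPM (log2 -0.41 ± 0.088, adjusted p = 0.0489), and was the only called member of the 20 tested genes of fatty acid synthesis and lipid handling (median -0.04), where Plin2, a lipid droplet protein, was higher without the 500 µg/mL libraries. Abhd2, a lipid hydrolase, also fell (log2 -0.19 ± 0.035, adjusted p = 0.0174), as did Clcn5, an endosomal chloride-proton exchanger (log2 -0.15 ± 0.032, adjusted p = 0.0487), which had the smallest change of the 47. Among the genes that rose, Me1, the cytosolic malic enzyme that makes NADPH, was at 74.997, 77.05 and 76.3 CPM against 66.7, 66.6 and 61.9 CPM (log2 0.23 ± 0.047, adjusted p = 0.0405). Acsl6, a long-chain acyl-CoA synthetase, rose by log2 0.19 ± 0.042, adjusted p = 0.0489. Aldh1l2, the mitochondrial formyltetrahydrofolate dehydrogenase, was at 78.4, 75.3 and 79.4 CPM against 64.98, 65.6 and 64.6 CPM (log2 0.26 ± 0.046, adjusted p = 0.0133). It was 1 of 23 in the list of amino acid and integrated stress response genes, of which the other 22 were not called (median 0.09), among them Psat1 of serine synthesis (log2 0.16, adjusted p = 0.0648; higher without the 500 µg/mL libraries) and Chac1 (log2 0.19, adjusted p = 0.357). Slc7a1 kept its call in all 6 refits without a library, Aldh1l2 lost it in 5, and Mfsd2a, Abhd2, Clcn5, Me1 and Acsl6 lost it in all 6 (adjusted p up to 0.115 for Aldh1l2 and 0.277 for Acsl6).

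Muscle structure showed 1 called sarcomere gene. Myh2, the fast type IIA myosin heavy chain (chromosome 11, 67171027 to 67197517, plus strand), was at 121, 116 and 121 CPM at 20 µg/mL, 102, 93.99 and 94.7 CPM in vehicle and 106, 93.1 and 94.8 CPM in non-treated cells. It was above both controls in every treated library (log2 0.30 ± 0.055 (SE, n = 3 per group; edgeR adjusted p = 0.0181)), and an antisense gene, 9430073C21Rik, overlaps 1838 bp of it, so counts could be shared. At 500 µg/mL it was lower than at 20 µg/mL (log2 -0.56, adjusted p = 1.93e-07). The other myosin heavy chains measured overlapped between the groups: adult Myh1 (log2 0.12, adjusted p = 0.415), Myh4 (-0.07, 0.594) and slow Myh7 (0.08, 0.705), embryonic Myh3 (0.07, 0.746) and neonatal Myh8 (-0.04, 0.812). Of 45 sarcomere and contractile genes, all tested, 1 rose, where 0.173% of all genes rose, 0 fell and 44 were not called. Their median was 0.09, beside 0.0012 over all genes, and 40 of 45 lay above 0. Smpx (log2 0.16, adjusted p = 0.123), Mybpc2 (log2 0.24, adjusted p = 0.134) and Cmya5 (log2 0.36, adjusted p = 0.163) had the next smallest p-values. Without the 500 µg/mL libraries 4 were higher, where 0.697% of all genes were: Myh2, Mybpc2, Smpx and Tnni2. The call of Myh2 was lost in 5 of 6 refits that left out a library (adjusted p up to 0.149).

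Other muscle and cytoskeletal genes moved in both directions. Ank2, ankyrin B, which anchors membrane proteins, rose from 22.4, 20.7 and 20.4 CPM to 26.4, 25.8 and 24.3 CPM (log2 0.27 ± 0.054, adjusted p = 0.0294). Hspb7, a small heat shock protein of heart and skeletal muscle, rose from 169, 159.8 and 155 to 189.9, 190.3 and 194 CPM (log2 0.25 ± 0.042, adjusted p = 0.0074), and the chaperone Hsph1 (HSP110) from 107, 105 and 106 to 132, 129.7 and 127 CPM (log2 0.29 ± 0.059, adjusted p = 0.0426). These were 2 of 23 tested heat shock genes, where 0.173% of all genes rose, with 21 not called and a median of 0.06. Without the 500 µg/mL libraries Chordc1 was higher too, where 0.697% of all genes were. Abra (STARS), an actin-binding activator of serum response factor signalling, fell from 42.5, 45.01 and 42.97 to 36.8, 33.9 and 38.6 CPM (log2 -0.25 ± 0.051, adjusted p = 0.0282). Mical2, an oxidase that disassembles actin filaments, fell from 198, 207 and 205 to 176, 171 and 176 CPM (log2 -0.22 ± 0.036, adjusted p = 0.00561), and Rem1, a small GTPase that restrains voltage-gated calcium channels, from 13.8, 15.9 and 15.1 to 10.8, 11.1 and 12.2 CPM (log2 -0.39 ± 0.080, adjusted p = 0.0322). None of the 21 tested cytoskeleton and SRF targets was called, at a median of -0.08, with Acta2 at -0.14 and Actb at -0.11. Of the 21, 17 lay below 0, and without the 500 µg/mL libraries Acta2, Actg1 and Csrp1 were lower. Eef1a2, the muscle and neuron form of elongation factor 1 alpha, was the only called gene past a log2 difference of 1, from 1.08, 1.003 and 0.674 CPM in vehicle to 1.91, 1.94 and 1.903 CPM (log2 1.06 ± 0.196 (SE, n = 3 per group; edgeR adjusted p = 0.0171)). Its level was low, and non-treated libraries, at 1.92, 1.503 and 1.33 CPM, reached the treated range (log2 0.27, adjusted p = 0.506). Refits without 1 library lost Hspb7 and Mical2 in 2 of 6 each, Ank2 and Rem1 in 4, Abra and Eef1a2 in 5 and Hsph1 in 6, with adjusted p-values up to 0.231 for Rem1.

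Genes of secreted signals, receptors and matrix changed in both directions. Hes1 (chromosome 16, 30064384 to 30067796, plus strand), a repressor induced by Notch, was at 43.4, 48.8 and 44.5 CPM at 20 µg/mL, 34.99, 35.4 and 34.2 CPM in vehicle and 36.1, 35.8 and 34.2 CPM in non-treated cells. The treated libraries were above all control libraries (log2 0.39 ± 0.052 (SE, n = 3 per group; edgeR adjusted p = 0.00112)). Inhbb (chromosome 1, 119415465 to 119422248, minus strand), the activin and inhibin beta B chain, was at 88.4, 87.4 and 84.4 CPM against 73.5, 74.1 and 75.03 and 74.4, 75.02 and 71.5 CPM. It too was above both controls (log2 0.23 ± 0.035, adjusted p = 0.00361). Grem1 (chromosome 2, 113746164 to 113758646, minus strand), a secreted BMP antagonist, was at 209, 205 and 210.5 CPM against 170.2, 167 and 169.8 CPM in vehicle (log2 0.30 ± 0.048, adjusted p = 0.00459) but 229, 202 and 218 CPM in non-treated cells, which overlapped the treated libraries (log2 -0.05, adjusted p = 0.664). The vehicle group was the low one, at log2 -0.35 against non-treated (adjusted p = 0.00105). Of 25 tested genes of Notch, BMP and Wnt response, Hes1 and Grem1 rose, where 0.173% of all genes rose, 0 fell and 23 were not called (median -0.03). The Notch target Hey1 lay lower in treated libraries, 6.33, 6.602 and 6.46 CPM against 7.54, 7.02 and 8.19 CPM (log2 -0.23, adjusted p = 0.47), and Lfng, a modifier of Notch, at -0.33 (adjusted p = 0.109), and lower without the 500 µg/mL libraries. Hes1, Inhbb and Grem1 were called in all 6 refits without 1 library, but Grem1 was not called against the mean of both controls (adjusted p = 0.167), a reference chosen after seeing the data.

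Spp1, the secreted matrix protein osteopontin, was at 1252, 1214 and 1301 CPM against 1052, 1120.0 and 1067 CPM in vehicle and 1274, 1324 and 1239 CPM in non-treated cells (log2 0.22 ± 0.039, adjusted p = 0.0123 against vehicle). As for Grem1, the vehicle libraries stood below both other groups. Cd44 (chromosome 2, 102811141 to 102901665, minus strand), the hyaluronan receptor that also binds osteopontin, was at 336, 325 and 319 CPM against 394, 414 and 391 CPM in vehicle and 404, 393 and 406 CPM in non-treated cells. It fell below both controls (log2 -0.29 ± 0.037 (SE, n = 3 per group; edgeR adjusted p = 0.000598)). Wisp1 (Ccn4), a matricellular protein induced by Wnt, fell from 404, 402 and 404 to 357, 342 and 370.0 CPM (log2 -0.18 ± 0.035, adjusted p = 0.0238). Gfra1, the receptor of glial cell line-derived neurotrophic factor, fell from 53.3, 57.8 and 57.6 to 47.2, 49.99 and 46.9 CPM (log2 -0.23 ± 0.044, adjusted p = 0.0207), while non-treated cells, at 49.4, 48.8 and 47.6 CPM, overlapped the treated ones. Tnfrsf1b, the second tumour necrosis factor receptor, rose from 36.7, 34.9 and 37.3 to 42.6, 43.9 and 40.9 CPM (log2 0.23 ± 0.047, adjusted p = 0.0405). Ikbkg, which encodes NEMO, the regulatory subunit of the NF-kB kinase, rose from 60.3, 58.97 and 60.5 to 74.4, 70.3 and 72.5 CPM (log2 0.27 ± 0.039, adjusted p = 0.00147). It shares 19712 bp with G6pdx on the opposite strand, a gene that was not called (log2 0.06, adjusted p = 0.674). In the NF-kB and inflammation list, 0 of 19 tested genes were called (median 0.05), Csf2rb having the smallest p (log2 0.52, adjusted p = 0.0588). Csf2rb was higher and Tnfrsf12a lower without the 500 µg/mL libraries. Cd44 and Ikbkg held their calls in all 6 refits without 1 library, Spp1 and Gfra1 lost them in 4 each, and Wisp1 and Tnfrsf1b in 5 each.

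Spry1, Pdgfb and Erf, called genes with known ties to growth factor signalling by ERK, changed in both directions. Spry1, a feedback inhibitor of receptor tyrosine kinases, rose from 19.3, 21.4 and 19.5 to 24.7, 25.7 and 23.5 CPM (log2 0.30 ± 0.055, adjusted p = 0.0174), with non-treated cells at 20.99, 20.6 and 19.02 CPM. Pdgfb, the B chain of platelet-derived growth factor, fell from 38.98, 38.9 and 40.1 to 31.2, 31.003 and 34.3 CPM (log2 -0.29 ± 0.059, adjusted p = 0.0317). Erf, an ETS repressor that ERK phosphorylation removes from the nucleus, fell from 63.2, 67.7 and 66.3 to 54.5, 51.1 and 50.1 CPM (log2 -0.34 ± 0.055, adjusted p = 0.00561). No treated library overlapped a vehicle library for any of these genes. In the ERK feedback list, 1 of 17 tested genes rose, 1 fell and 15 were not called, with a median of 0.04. Over all genes, 0.173% rose and 0.152% fell. Errfi1 (log2 0.21, adjusted p = 0.112) and Dusp6 (log2 0.23, adjusted p = 0.149) followed in the list. Of 25 tested immediate early genes 0 were called (median -0.03), Egr1 at 0.19 and Nr4a1 at -0.26. Egr1, Errfi1 and Phlda1 were higher and Nr4a1 lower without the 500 µg/mL libraries. Without vehicle replicate 2 Erf was no longer called (adjusted p = 0.0548), and refits without 1 library lost Spry1 in 4 of 6 and Pdgfb in 5.

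Greb1 (chromosome 12, 16670615 to 16800886, minus strand), a gene induced by estrogen receptor, had the largest rise of a called coding gene after Eef1a2 and Lars2. It was at 9.39, 8.37 and 8.36 CPM at 20 µg/mL, 5.82, 5.13 and 6.34 CPM in vehicle and 6.28, 5.98 and 6.35 CPM in non-treated cells. All treated libraries were above all controls, at 1.51 times vehicle (log2 0.60 ± 0.082 (SE, n = 3 per group; edgeR adjusted p = 0.00143)). At 100 µg/mL it was 16.99 ± 0.163 CPM, above 20 µg/mL (log2 0.96, adjusted p = 1.82e-07), and at 500 µg/mL 13.05 ± 0.606 CPM (SD, n = 3). It was the only called gene of 13 tested estrogen-responsive genes (median -0.01), where the receptor gene Esr1 was at 14.5, 13.6 and 14.6 CPM against 15.1, 16.3 and 16.4 CPM (log2 -0.16, adjusted p = 0.443). Mest (chromosome 6, 30723547 to 30748465, plus strand), an imprinted gene expressed from the paternal copy, was at 22.2, 21.6 and 21.4 CPM against 30.5, 28.7 and 27.5 CPM in vehicle and 25.5, 25.6 and 25.5 CPM in non-treated cells. It fell below both controls (log2 -0.41 ± 0.052 (SE, n = 3 per group; edgeR adjusted p = 0.000598)) and was 11.9 ± 0.272 CPM at 500 µg/mL. Mest shares 912 bp with Copg2 on the opposite strand (log2 0.03, adjusted p = 0.876). It was the only called member of 13 tested imprinted growth genes (median -0.08). Greb1 and Mest were called in every alternative run, 18 in all.

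Further called genes include several with known ties to transcription. E2f2, an E2F factor of the cell cycle, rose from 88.8, 80.1 and 85.2 to 102, 110.2 and 101 CPM (log2 0.30 ± 0.046, adjusted p = 0.00312), and Mxd1, an antagonist of MYC, from 30.1, 27.7 and 28.5 to 35.1, 34.5 and 32.8 CPM (log2 0.25 ± 0.047, adjusted p = 0.0198). Cbfa2t3, a corepressor of the ETO family, rose from 28.1, 26.5 and 26.7 to 33.1, 33.998 and 32.1 CPM (log2 0.29 ± 0.051, adjusted p = 0.0123), but Gm20388, a gene model that overlaps it on the opposite strand, was assigned 12.1 and 9.31 CPM in 2 treated libraries and 0 in the other treated and all vehicle libraries. Zfp608, a zinc finger gene, rose from 15.7, 15.8 and 14.7 to 19.005, 17.9 and 18.9 CPM (log2 0.27 ± 0.051, adjusted p = 0.0178). Bhlhe41 (DEC2), a repressor of the circadian clock, fell from 117, 115 and 119 to 103, 104 and 102 CPM (log2 -0.18 ± 0.037, adjusted p = 0.0312) and was the only called gene of 19 in the circadian list (median -0.06). Bahcc1, a chromatin reader protein, also fell (log2 -0.26 ± 0.054, adjusted p = 0.0412). The zinc finger genes Zfp703 (log2 -0.25, adjusted p = 0.026) and Zfp704 (log2 -0.25, adjusted p = 0.0151) each fell against vehicle. Zfp703 was at 44.9, 41.5 and 45.2 CPM at 20 µg/mL and 46.4, 46.2 and 48.01 CPM in non-treated cells. Zfp704 was at 38.98, 34.9 and 35.0004 CPM at 20 µg/mL and 39.1, 37.96 and 38.8 CPM in non-treated cells. Against non-treated cells neither was called (adjusted p = 0.372 and 0.375). Gm22, listed in RefSeq under Zfp469, fell from 16.8, 15.9 and 17.3 to 14.1, 12.9 and 13.3 CPM (log2 -0.31 ± 0.061, adjusted p = 0.0231). Of these genes E2f2 was called in all 6 refits without 1 library. Mxd1, Cbfa2t3, Bahcc1 and Gm22 lost the call in 4 of them, Zfp608 and Zfp704 in 5, and Bhlhe41 and Zfp703 in 6.

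After Eef1a2, the largest increases of called genes were in Lars2, in the structural RNAs Gm22405 and Gm26191, and then in Greb1 (log2 0.60). The structural RNA mt-Rnr2 rose less than Greb1. Lars2 (chromosome 9, 123366927 to 123462666, plus strand) encodes the mitochondrial leucyl-tRNA synthetase. After its values were seen, it was grouped with RNAs that lack a poly(A) tail or hold sequence like ribosomal RNA. Whether its reads came from such sequence was not tested. Lars2 was at 330.3, 320.0 and 309 CPM at 20 µg/mL, 184, 149 and 155 CPM in vehicle and 143, 152 and 153 CPM in non-treated cells. The treated level was 1.96 times that of vehicle with a wide gap between the groups (log2 0.97 ± 0.133 (SE, n = 3 per group; edgeR adjusted p = 0.0131)). It stood at 321 ± 18.4 CPM at 100 µg/mL and 355 ± 78.3 CPM at 500 µg/mL (SD, n = 3), and it was the only called gene of 28 aminoacyl-tRNA synthetases (median 0.06), of which Sars was higher and Mars2 lower without the 500 µg/mL libraries. Its call was lost in 4 of 6 refits without 1 library (adjusted p up to 0.108), with a log2 difference of 0.92 to 1.07 over the alternatives. mt-Rnr2, the mitochondrial large ribosomal RNA (chromosome M, 1094 to 2675, plus strand), was at 3043, 3007 and 2973 CPM against 2172, 2215 and 2225 CPM in vehicle and 2645, 2275 and 2407 CPM in non-treated cells. It had the smallest p of all genes (log2 0.45 ± 0.047 (SE, n = 3 per group; edgeR adjusted p = 6.98e-05)). The small ribosomal RNA mt-Rnr1 had a like difference with more spread and was not called (log2 0.49 ± 0.124, adjusted p = 0.162). Together the mitochondrial ribosomal RNAs took 0.385 to 0.400% of counts at 20 µg/mL, 0.280 to 0.288% in vehicle and 0.286 to 0.339% in non-treated cells. All mitochondrially encoded genes took 4.46 to 5.11% and 4.74 to 4.94% at 20 µg/mL and in vehicle, and 14 of these 15 genes were not called (median -0.06).

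Gm22405 and Gm26191, listed in RefSeq as Rn7s1 and Rn7s2, copies of the signal recognition particle RNA, had identical values in every library and count as 1 observation. They were at 5.14, 4.08 and 5.13 CPM at 20 µg/mL, 2.64, 2.43 and 2.63 CPM in vehicle and 1.99, 2.03 and 1.85 CPM in non-treated cells, with no overlap (log2 0.90 ± 0.128 (SE, n = 3 per group; edgeR adjusted p = 0.00147)). Signal recognition particle RNA is not polyadenylated like an mRNA. Malat1, a long RNA of the nucleus, was at 1835, 1961 and 1990.0 CPM against 1405, 1345 and 1443 CPM, higher in every treated library but not called (log2 0.46, adjusted p = 0.26). Gm26917 was also higher in every treated library without a call (log2 0.37, adjusted p = 0.532), and Neat1, another nuclear RNA, overlapped (log2 0.02, adjusted p = 0.935). Over all genes, 10.2% were higher without overlap. Counts of protein-coding genes were 93.0 to 93.4% of the total at 20 µg/mL and 93.2 to 93.4% in vehicle. The part of RNA composition in the differences of mt-Rnr2, Gm22405 and Lars2 was not tested.

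**Figure D2:**
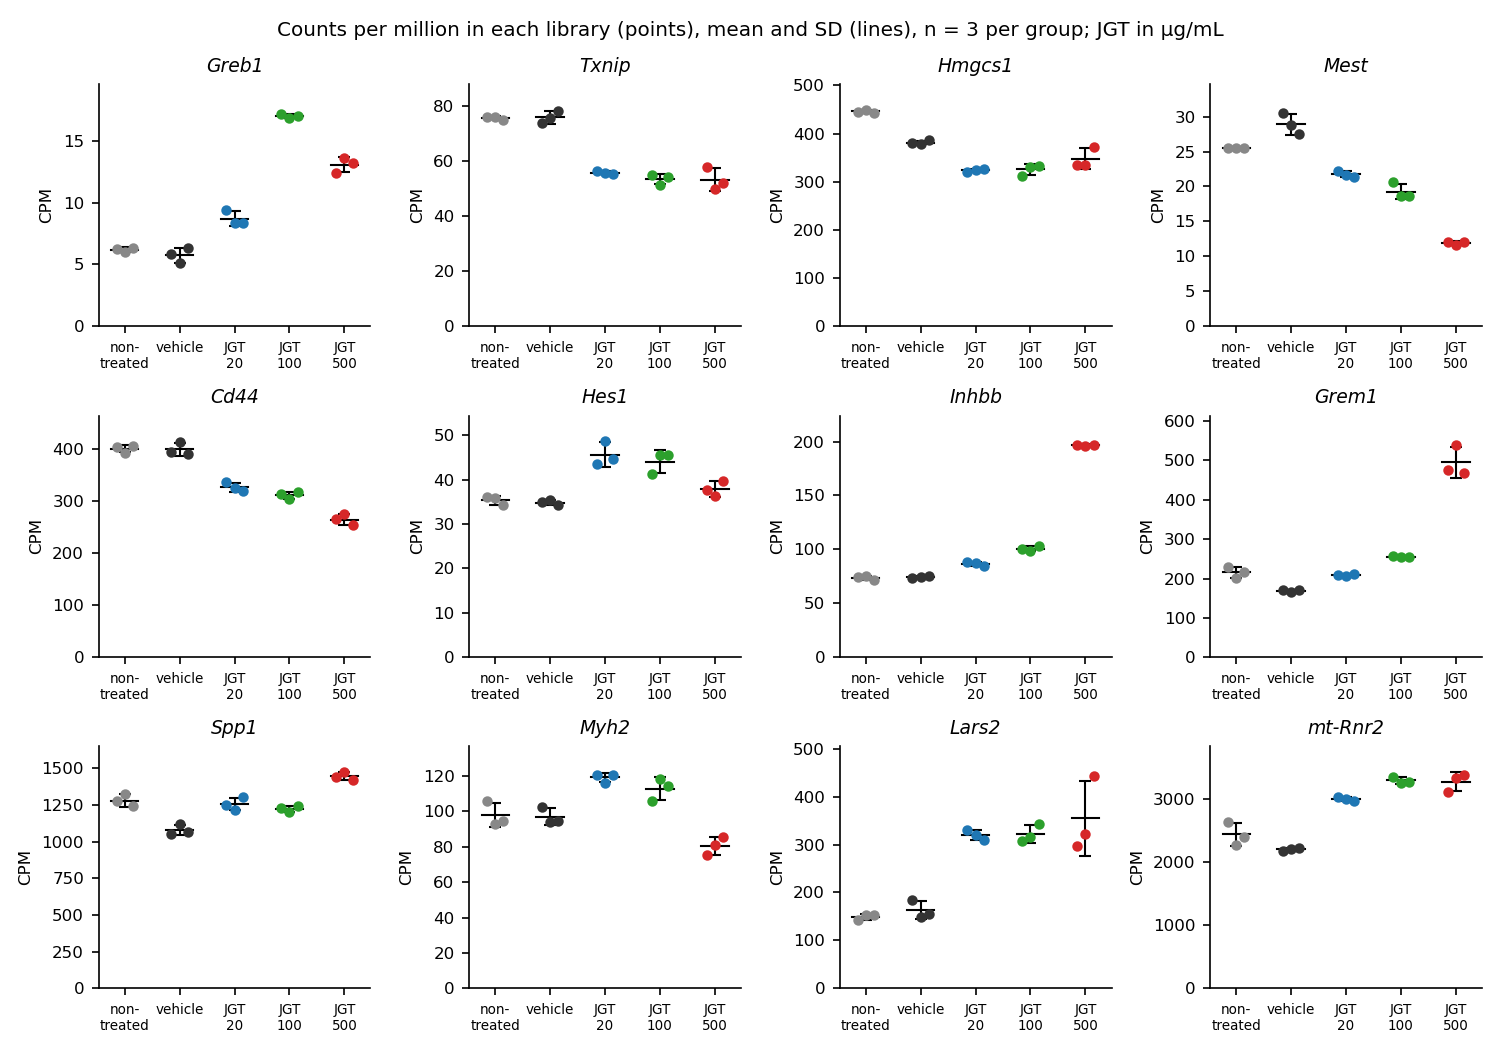
CPM in each library (points) with mean and SD (lines) for 12 of the called genes in the 5 groups, n = 3 each. Greb1 is higher at 100 than at 20 µg/mL, Txnip lies below and Lars2 above both control groups at all 3 doses, and for Grem1 and Spp1 the vehicle libraries lie below the non-treated ones.

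The second control was used to see which of the 47 differences depend on the vehicle. The comparison with non-treated cells shares the 3 treated libraries with the comparison above, so the values stand side by side and one does not support the other. At 20 µg/mL, 172 genes were higher and 278 lower than in non-treated cells (3.11% of genes; 1.19% higher, 1.92% lower). Of the 25 genes higher than vehicle, 16 were also higher than non-treated and 9 were not called: Acsl6, Aldh1l2, Eef1a2, Grem1, Hsph1, Me1, Slc2a1, Spp1 and Zfp608. Of the 22 lower genes, 15 were lower than non-treated and 7 were not called: Bhlhe41, Clcn5, Gfra1, Mfsd2a, Rem1, Zfp703 and Zfp704. Vehicle differed from non-treated in 189 genes (1.31%), 80 higher (0.553%) and 109 lower (0.754%). Among them were 4 of the 25, all lower in vehicle (Acsl6, log2 -0.23; Aldh1l2, -0.21; Grem1, -0.35; Spp1, -0.24), and 2 of the 22, Gfra1, higher in vehicle (0.21), and Hmgcs1, lower (-0.23). For Acsl6, Aldh1l2, Grem1, Spp1 and Gfra1 the vehicle group was the one that stood apart. For Eef1a2, all vehicle libraries also lay below all non-treated ones, though that difference was not called. The part of DMSO in these differences was not tested. Txnip (0.00), Cd44 (-0.00), Inhbb (0.01) and Hes1 (-0.02) had vehicle and non-treated levels close to each other.

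**Figure D3:**
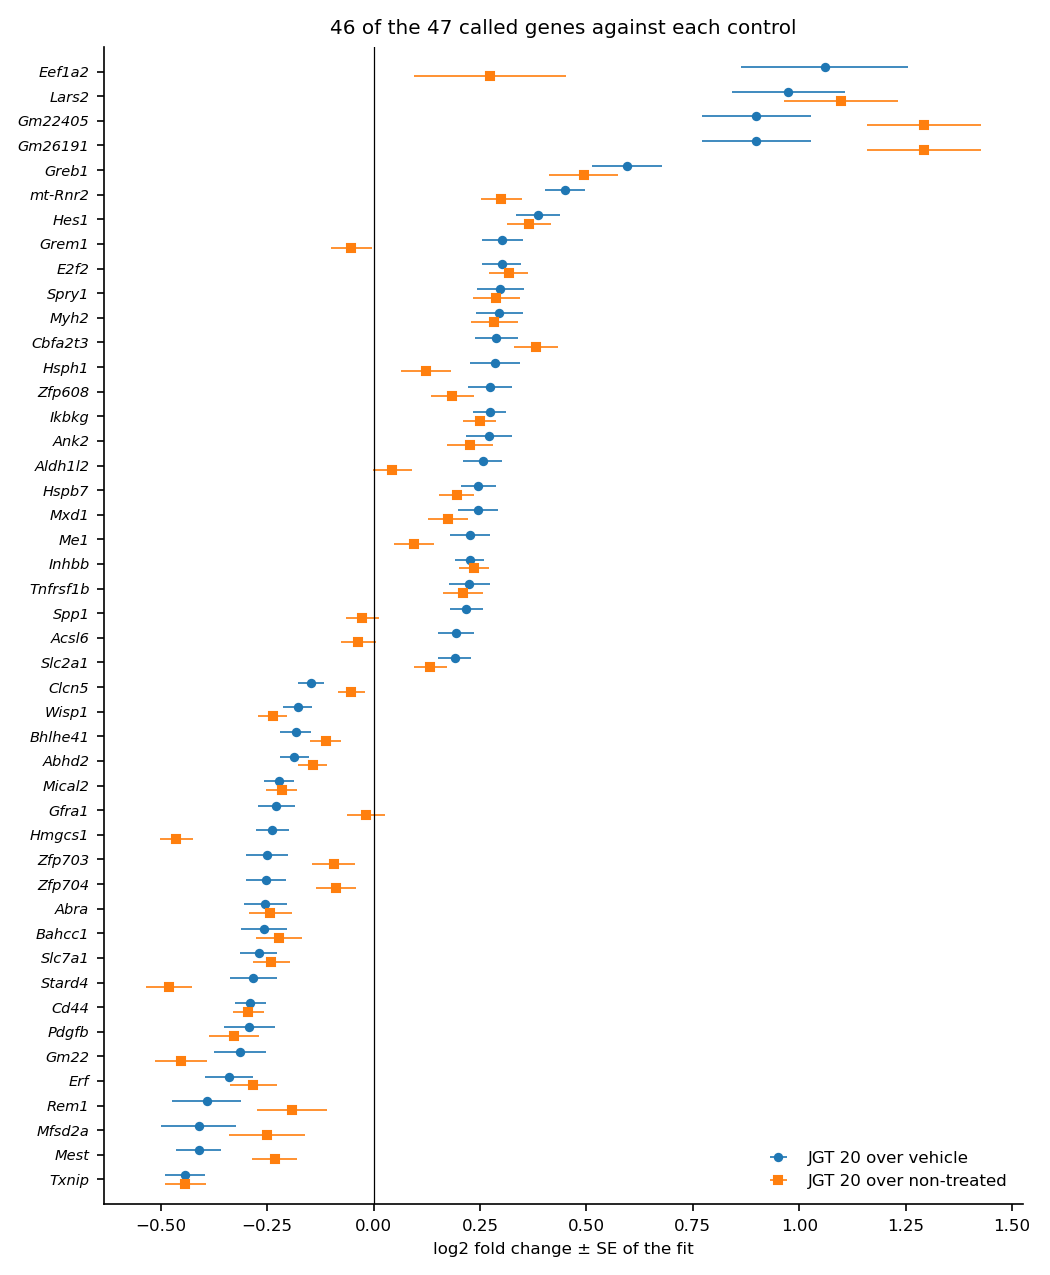
Log2 fold change with the SE of the fit for 46 of the 47 called genes, JGT 20 µg/mL over vehicle (blue circles) and over non-treated (orange squares). Grem1, Spp1, Acsl6, Aldh1l2 and Gfra1 lie near 0 against non-treated cells, while Txnip, Cd44, Greb1 and Lars2 keep their distance from both.

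Higher doses were compared with non-treated cells, since the comparison of 100 µg/mL with non-treated shares no library with that of 20 µg/mL with vehicle. At 100 µg/mL 9.13% of all genes differed from non-treated. Of the 25 higher genes, 19 were higher than non-treated there, where 4.29% of all genes were, and 24 of 25 had a positive difference (median 0.32). The exception was Spp1 at log2 -0.07. Of the 22 lower genes, 18 were lower than non-treated, where 4.83% of all genes were, and all 22 had a negative difference (median -0.32). The JGT groups of the 2 comparisons both carry the JGT sample codes, and the controls both carry the control codes. At 500 µg/mL (31.8% of genes called against non-treated), 19 of the 25 were higher (16.3% of genes), 3 were lower, and 20 of the 22 were lower (15.5% of genes).

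**Figure D4:**
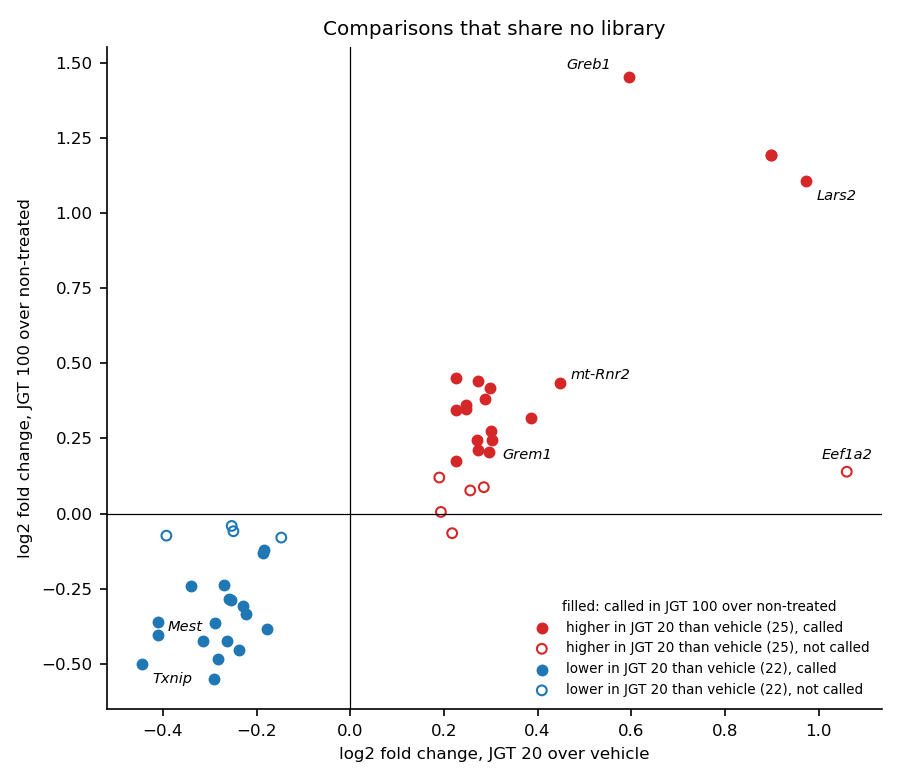
Log2 fold change of JGT 20 µg/mL over vehicle (horizontal) against that of JGT 100 µg/mL over non-treated (vertical) for the 47 genes, with filled points for those called in the latter. The comparisons share no library, and 24 of the 25 red and 22 of the 22 blue points lie on the same side of 0 on both axes.

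Direct tests between doses showed few steps from 20 to 100 µg/mL. Between these doses 43 genes were higher and 19 lower at 100 µg/mL (0.429% of genes). Of the 25 genes, 4 were higher still: Greb1 (log2 0.96, adjusted p = 1.82e-07), Grem1 (0.30, 0.00361), Inhbb (0.22, 0.00346) and Ikbkg (0.19, 0.0231). Of the 22, Gfra1 was lower still (-0.29, 0.00228). The other 21 of each set were not called between these doses, which does not show them equal. From 20 to 500 µg/mL (23.3% of genes called), 13 of the 25 were higher and 7 lower, the lower ones being Aldh1l2, E2f2, Eef1a2, Gm22405, Gm26191, Hes1 and Myh2. The steepest step among the 47 was in Eef1a2 (log2 -1.74), followed by Grem1 (1.25) and Inhbb (1.18), which reached 197 ± 0.692 CPM. Of the 22, 15 were lower still at 500 µg/mL, among them Pdgfb (-0.93) and Mest (-0.87), 6 were not called, and Stard4 was higher (0.18, adjusted p = 0.02).

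Most gene lists held no called member at this dose. Of 42 lists, 15 had at least 1 and 27 had 0, where 0.325% of all genes tested were called. The lists were chosen with earlier results of these data known. List medians ran from -0.14 to 0.09. Without the 500 µg/mL libraries 11 lists had 0, where 1.76% of all genes were called. The lowest median was that of the cell cycle list, -0.14, with 30 of 33 members below 0 and 0 called. Its smallest p-values were those of the mitotic regulators Foxm1 (34.2, 33.4 and 33.8 CPM against 38.8, 40.7 and 39.1 CPM; log2 -0.23, adjusted p = 0.0648), Ccna2 (log2 -0.19, adjusted p = 0.0892), Ccnb1 (log2 -0.27, adjusted p = 0.105) and Cdc20 (log2 -0.24, adjusted p = 0.105). Mki67, a marker of cycling cells, was at 105, 104 and 97.4 CPM against 115, 113 and 111 CPM in vehicle and 145, 139.9 and 144 CPM in non-treated cells (log2 -0.15, adjusted p = 0.197 against vehicle). Its 3 groups did not overlap. Against non-treated cells 25 of the 33 were lower at 20 µg/mL (1.92% of all genes) and 15 in vehicle (0.754%), and without the 500 µg/mL libraries 7 were lower than in vehicle (1.06%): Mki67, Ccna2, Ccnb1, Foxm1, Cdc20, Kif20a and Anln. The 26 DNA replication genes had 0 called and a median of -0.04.

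**Figure D5:**
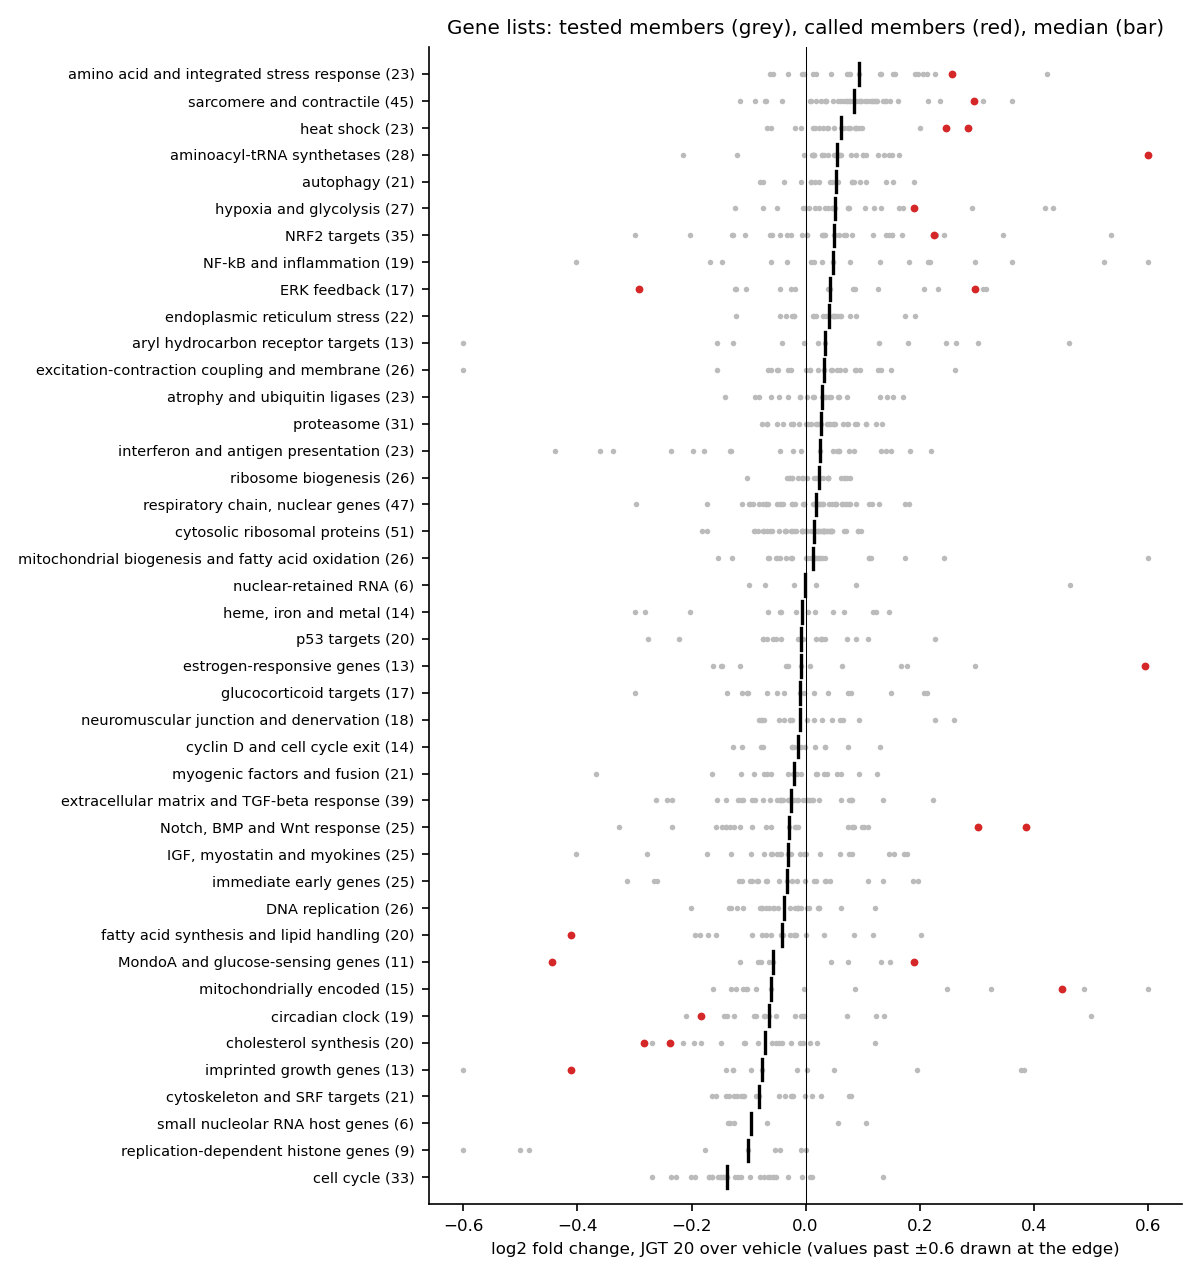
Log2 fold change of JGT 20 µg/mL over vehicle for the tested members of each of 42 gene lists (grey points, number tested in brackets), with called members in red and the list median as a black bar. Medians run from -0.14 (cell cycle) to 0.09 (amino acid and integrated stress response), and the cholesterol list holds 2 of the red points.

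Of the xenobiotic and antioxidant lists, only that of NRF2 targets held a called gene at 20 µg/mL. Of 35 tested NRF2 targets, Me1 rose, where 0.173% of all genes rose, and 34 were not called (median 0.05). Gsta4, a glutathione S-transferase, was at 8.54, 9.02 and 8.94 CPM against 7.78, 6.83 and 6.202 CPM (log2 0.35, adjusted p = 0.147), Nqo1, the quinone reductase, at 3.56, 4.63 and 4.25 CPM against 3.21, 4.67 and 4.25 CPM (log2 0.03, adjusted p = 0.951) and Hmox1, heme oxygenase 1, at 60.7, 59.4 and 52.7 CPM against 52.1, 51.99 and 52.1 CPM (log2 0.15, adjusted p = 0.525). The Gsta4 and Hmox1 groups did not overlap, where 10.2% of all genes were higher without overlap, and those of Nqo1 did. Without the 500 µg/mL libraries 5 of the 35 were higher, where 0.697% of all genes were: Gsta4, Gstm1, Gstp1, Pgd and Me1. Of 13 aryl hydrocarbon receptor targets 0 were called (median 0.03). Cyp1b1, a cytochrome P450, was at 69.6, 69.4 and 62.1 CPM against 56.8, 59.2 and 61.7 CPM (log2 0.18, adjusted p = 0.11) and was higher in the fit without the 500 µg/mL libraries (log2 0.18, adjusted p = 0.0332). Aldh3a1, an aldehyde dehydrogenase, was at 7.79, 7.52 and 7.000 CPM against 6.12, 5.79 and 6.202 CPM (log2 0.30, adjusted p = 0.235). Cyp1a1 had 0 counts over the treated libraries and 1 over the vehicle libraries, so no fold is given.

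The listed genes of muscle wasting and maintenance were not called in the fit of all groups. Fbxo32 (atrogin-1), a ubiquitin ligase of atrophy, was at 97.3, 96.96 and 100.2 CPM against 90.5, 87.6 and 90.9 CPM without overlap (log2 0.13, adjusted p = 0.162), and Trim63 (MuRF1), the other classical one, at 28.6, 29.8 and 30.99 CPM against 30.6, 30.7 and 29.96 CPM with overlap (log2 -0.03, adjusted p = 0.879). None of 23 atrophy and ubiquitin ligase genes was called (median 0.03), while without the 500 µg/mL libraries Fbxo32 was higher (log2 0.13, adjusted p = 0.0453) and Foxo1, a transcription factor of atrophy genes, lower (log2 -0.14, adjusted p = 0.0496). Myog, the differentiation factor myogenin, was at 852, 884 and 849.9 CPM against 805, 814 and 803 CPM (log2 0.09, adjusted p = 0.348), all treated libraries being higher. Igf1, the muscle growth factor, was at 44.8, 44.99 and 40.1 CPM against 47.6, 49.3 and 49.6 CPM (log2 -0.17, adjusted p = 0.292), all treated libraries being lower. Such a lack of overlap, as in Fbxo32, Myog and Igf1, was found for 10.2% of all genes upward and 10.8% downward. Ppargc1a, a coactivator of mitochondrial genes, was near 1 CPM with overlap (log2 -0.05, adjusted p = 0.961). Fkbp5, a glucocorticoid-induced chaperone of the glucocorticoid receptor, overlapped as well (log2 0.04, adjusted p = 0.885), and 0 of 17 glucocorticoid targets were called (median -0.01), with Errfi1 higher when the 500 µg/mL libraries were left out. Mstn, myostatin, had 0 counts over the treated and 2 over the vehicle libraries, too few to compare.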

How the data were processed

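Messenger RNA libraries of C2C12 myotubes were made with a directional MGI kit and sequenced in 100 bp paired-end reads, per the labels' protocols. FastQC 0.11.9, Trim Galore 0.6.5, STAR 2.7.3a, RSEM 1.3.3 and GRCm38 are named, per the submitters' processing notes. Which tool did what, the annotation and the strand setting: not given in the sources used here. Overlapping genes can therefore share counts. The authors deposited expected counts for each symbol and library without normalization, and every column was used. Of its values, 9.34% were not whole within 0.005, and all were rounded. Of 42807 symbols, 39311 matched GENCODE M21.

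Genes were filtered with filterByExpr, and 14461 were tested. All 15 libraries entered 1 edgeR 4.0.16 quasi-likelihood fit (R 4.3.3) with TMM factors of 0.988 to 1.02, robust dispersions, a biological coefficient of variation of 5.31% and 10 residual degrees of freedom. Tests were two-sided, and a gene was called at a Benjamini-Hochberg adjusted p below 0.05 over all genes tested. The SE of a log2 difference is its absolute value divided by the square root of the F statistic of the test. It therefore rests on the fit of all 15 libraries and not on the compared libraries alone. CPM values are scaled by TMM. Promoter windows came from RefSeq (GRCm38.p6).

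The members, the gene lists and the tests were chosen with earlier results of these data known. The text names the 12 largest rises and 12 largest falls among called genes of at least 5 CPM with no overlap and a proper symbol, called genes past a log2 difference of 1, the up to 4 members of smallest p in lists, and fixed genes. The remaining called genes and some further list members were named after their values were seen. No source states separate cultures for the 3 libraries of a group, so p-values measure only the spread among them, which may be technical. DESeq2 1.42.0, limma-voom (limma 3.58.1), other scalings and filters, fewer groups, a replicate block and leaving out libraries were tried. Some genes are not reported here, 1 of them among the 47 called, and stay out of the list counts. The scripts were tested on simulated data.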

Additional observations from a re-analysis of the deposited data

How the results depend on the processing

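No called gene changed direction in any of the 18 alternatives run on JGT 20 µg/mL against vehicle. Of the 47 called genes, 12 were called in all 18 (Cd44, E2f2, Gm22405, Gm26191, Greb1, Hes1, Ikbkg, Inhbb, Mest, mt-Rnr2, Slc7a1 and Txnip) and 35 lost the call in at least 1, Lars2 in 4 that left out a library. The 25 higher and 22 lower genes became 44 and 51 by DESeq2, 100 and 152 without the JGT 500 µg/mL group, 141 and 189 with only the 2 groups compared, and 67 and 129 with vehicle and non-treated averaged as the reference, an alternative added after seeing the data, as were the sterol and carbohydrate motifs. Without a filter 42 were higher. Leaving out a library gave 9 to 18 higher and 7 to 18 lower. The higher count was 11, 13 and 18 without JGT 20 µg/mL replicates 1, 2 and 3, and 17, 12 and 9 without vehicle replicates 1, 2 and 3. The lower count was 9, 9 and 18, and 10, 7 and 9. Same-numbered libraries of these groups did not deviate together (r = -0.598, -0.417 and -0.0508). With only 3 libraries a group these values depend on each other, so they cannot show whether the numbers pair libraries. The replicate block gave 25 and 24 genes over all groups, and 89 and 124 with only the 2 groups.

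Against non-treated cells, the 172 higher and 278 lower genes at 20 µg/mL became 450 and 611 without the 500 µg/mL group, 279 and 452 with only the 2 groups, 506 and 686 when the replicate block was added to these, and 51 to 101 and 144 to 195 when a library was left out. For vehicle against non-treated (80 and 109), the same settings gave 544 and 620, 479 and 552, 190 and 275, and 10 to 35 and 21 to 53, while DESeq2 gave 130 and 189, and 179 were lower without a filter. For 100 against 20 µg/mL (43 and 19), they gave 139 and 79, 124 and 67, 169 and 102, and 16 to 26 and 3 to 15, while 68 were higher without a filter, and 33 and 30 were lower by DESeq2 and with library totals only. The cause of these shifts was not tested.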

Other observations

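Energy, stress and matrix gene groups outside the comparisons above had at most 1 called member each at 20 µg/mL. Of 27 tested hypoxia and glycolysis genes, Slc2a1 rose, where 0.173% of all genes rose, and 26 were not called (median 0.05). Ak4, a mitochondrial adenylate kinase, was at 6.795, 6.64 and 6.83 CPM against 5.004, 5.400 and 4.62 CPM in vehicle (log2 0.43, adjusted p = 0.0838), and Egln3, an oxygen-sensing hydroxylase, at 111, 109 and 113 CPM against 98.5, 97.2 and 101 CPM (log2 0.16, adjusted p = 0.0929). Without the 500 µg/mL libraries Ak4, Egln3, Bnip3, Hk2 and Pfkm were higher as well, where 0.697% of all genes were. Of 47 nuclear genes of the respiratory chain (median 0.02), 51 cytosolic ribosomal proteins (0.02), 31 proteasome genes (0.03) and 22 genes of endoplasmic reticulum stress (0.04), 0 were called. Among 39 genes of extracellular matrix and TGF-beta response (median -0.03; 0 called), Ctgf, a matricellular target of TGF-beta, was at 198, 194 and 225 CPM against 231, 249.5 and 246 CPM (log2 -0.23, adjusted p = 0.132), and in the fit without the 500 µg/mL libraries Ctgf and Acta2 were lower. Gadd45a and Gadd45b, stress-induced growth arrest genes of the p53 list, differed in opposite directions, with Gadd45a at 214, 233 and 231 CPM against 194, 195 and 191 CPM (log2 0.23, adjusted p = 0.105) and Gadd45b at 29.9, 28.5 and 29.8 CPM against 33.8, 35.9 and 33.2 CPM (log2 -0.22, adjusted p = 0.0797). Neither was called in the fit of all groups, and neither pair of groups overlapped, where 10.2% of all genes were higher and 10.8% lower without overlap. Gadd45a was higher (log2 0.23, adjusted p = 0.000568) and Gadd45b lower (log2 -0.22, adjusted p = 0.00739) without the 500 µg/mL libraries.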
